A study of Mus musculus with 6 samples.

Results

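The genes described here are 34 that encode chaperones of the endoplasmic reticulum (ER), proteins of ER-associated degradation (ERAD), sensors of the unfolded protein response (UPR), and transcripts of the integrated stress response downstream of ATF4 and CHOP. They were taken by name, as a list of pathway members with no threshold on their values, out of 21899 genes in each liver library. The libraries came from C57BL/6 mice that were 6 weeks old when the study began. In 3 mice the diet was CDAA (in this field, a choline-deficient, amino acid-defined feed), reached through a week of mixed feed, and in 3 mice it was CSAA, the choline-supplemented counterpart. Livers were sampled after 6 weeks, and the labels give no sex. Both feeds are amino acid-defined, so neither group ate standard chow.

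The ER folds the proteins that hepatocytes secrete, and its chaperones, above all BiP (encoded by Hspa5), hold unfolded chains there. When folding falls behind, the sensors IRE1 (Ern1), PERK (Eif2ak3) and ATF6 act. IRE1 splices the message of Xbp1, ATF6 is cut to release a transcription factor, and the products of both raise chaperone and ERAD genes. PERK phosphorylates a translation initiation factor, a signal shared with kinases that sense amino acid lack, viral RNA and haem, and this raises translation of Atf4, whose targets include Atf3, Ddit3 (CHOP), Trib3, Asns and Chac1. Read counts of whole genes report neither Xbp1 splicing nor ATF6 cleavage nor translation.

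The libraries held from 14580676 to 15291743 reads under CDAA and from 15459290 to 17367173 under CSAA. All 34 members passed the filter on low counts, and a member had between 34 and 20707 reads in a library. Ddit3 is on 2 rows of the files. The longer gene (ENSMUSG00000025408) held all 787 reads, and a short overlapping one (ENSMUSG00000116429) held 0, so the first was used. It also shares 68 bases with Mars1, Atf5 shares 571 with Nup62, and Ppp1r15a 717 with Tulp2. Manf lies in a stretch shared with Dcaf1 and Rbm15b. Syvn1 shares 91 bases with Mrpl49 and Derl2 231 with Mis12, so the values of all these members are less certain. CDAA replicate 1 stood apart. Its 21 pancreatic acinar marker genes reached a sum of 2472 CPM (read counts scaled to library totals and by edgeR's TMM factors), while the other 5 libraries had at most 23.6 CPM, and all 21 had reads in it while 10 to 17 were at 0 in each of the others, Clps, Sycn, Rnase1, Pnliprp1 and Ctrc in all 5. Striated muscle markers stood at 236.0 CPM there and at no more than 1.38 CPM elsewhere. Acinar cells are rich in ER chaperones, so the results for member classes, most chaperones, called members and called pathway genes are also given without it. Groups are named by their labels.

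Compared per kilobase of gene length, in the FPKM that the authors deposited, chaperones were the most abundant members and ATF4 arm genes mostly the least. Calr (calreticulin, a calcium-binding lectin chaperone) averaged 340.9 FPKM in CDAA and 337.1 FPKM in CSAA. Hspa5 (BiP) followed at 260.4 FPKM in CDAA and 234.6 FPKM in CSAA. FPKM carries no TMM factors, so the diets differ less or more here than in the fold changes below. The chaperones ran from 16.3 to 339.0 FPKM with a median of 84.8 FPKM over the 6 libraries. The ERAD genes had a median of 30.6 FPKM, from Derl3 at 2.67 to Herpud1 at 191.4. The 9 genes of the ATF4 and CHOP arm had a median of 7.89 FPKM, and Atf5, at 122.7 FPKM, and Atf4, at 51.9 FPKM, were well above the rest. In the plot of FPKM by library, neighbouring members mostly overlap, so the order of single neighbours is not resolved.

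**Figure D1:**
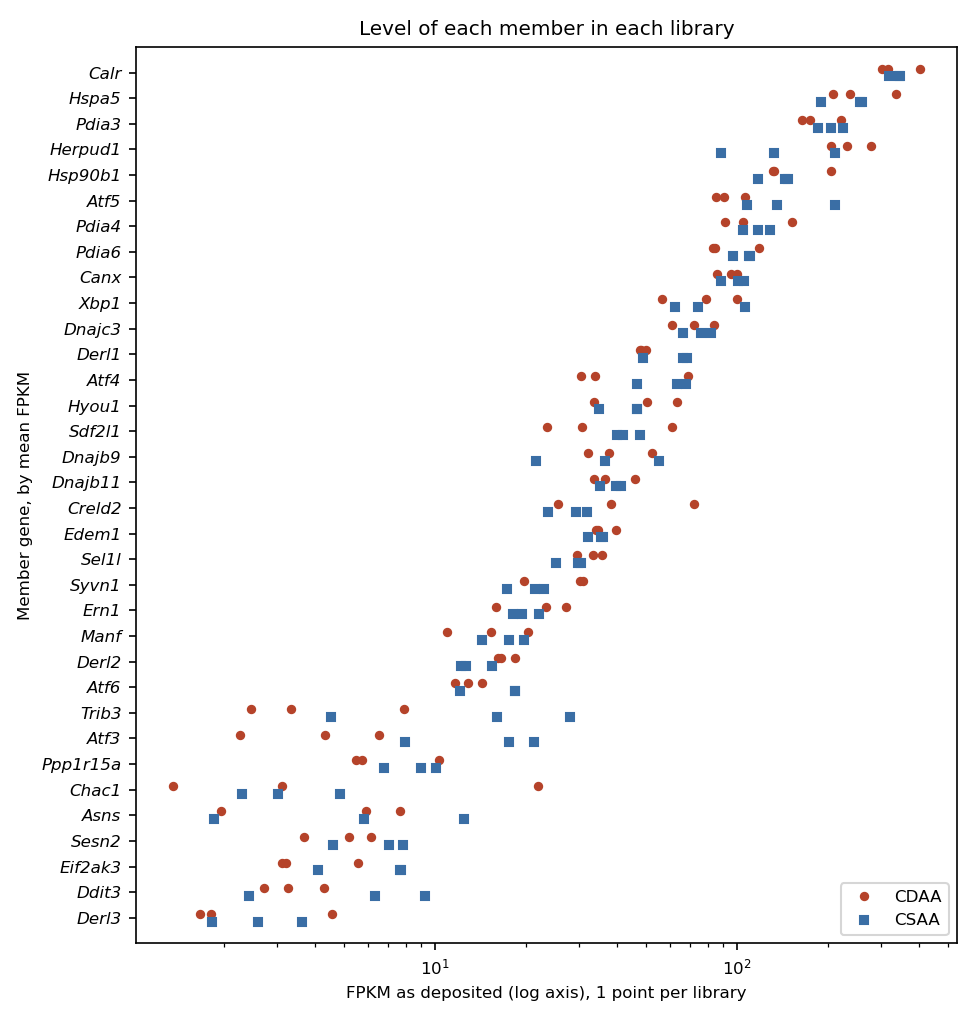
Deposited FPKM (log axis) of the 34 members, 1 point per library, circles for CDAA and squares for CSAA, ordered by the mean over all 6 libraries. Calr and Hspa5 are at the top and Ddit3 and Derl3 at the bottom, and points of both groups overlap for most genes.

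Promoters of several chaperone and ERAD members carried a shared element that few mouse promoters hold, and the matches are shown because the element was in none of the ATF4 arm windows. RefSeq promoter windows (build GRCm38.p6, 250 bases before to 50 after each start) matched 30 members by symbol, and Hyou1, Manf, Derl1 and Atf6 had no entry. The ER stress response element, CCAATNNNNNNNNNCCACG on either strand, was in 39 of 32851 windows of all genes (0.119%) and in the windows of 9 of the 30 members, 7 of 12 chaperones and 2 of 6 ERAD genes. It was in 0 of 9 ATF4 arm windows, a count that the share of 0.119% makes likely for any 9 genes. The 10 matches follow, each read along the strand that matches, with the fixed letters in capitals (Hsp90b1, which encodes the chaperone GRP94, holds a pair):
Syvn1: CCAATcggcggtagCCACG
Hspa5: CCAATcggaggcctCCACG
Hsp90b1, farther from the start: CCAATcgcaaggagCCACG
Hsp90b1, nearer to the start: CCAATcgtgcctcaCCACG
Creld2: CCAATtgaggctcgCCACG
Calr: CCAATgagggtcgaCCACG
Canx: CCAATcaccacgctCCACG
Dnajc3: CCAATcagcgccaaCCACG
Pdia6: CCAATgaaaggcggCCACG
Derl3: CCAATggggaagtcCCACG

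A second form of that element (ATTGG, any 1 base, then CCACG) was in 12 windows of all genes (0.0365%), among them those of Herpud1 and Dnajb11. The amino acid response element core, TGATGNAAN, was in 1299 windows (3.95%) and in those of 4 of 9 ATF4 arm members (Atf3, Trib3, Asns and Chac1). It was also in the window of 1 ERAD gene, Herpud1, and of 0 of 12 chaperones. The unfolded protein response element, TGACGTGG, was in 222 windows (0.676%) and in 0 of the 30 members' windows. Both strands were searched for each motif. A match is a description of the letters and not evidence that a factor binds there.

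Under CDAA 4 of 7 ERAD genes rose, no chaperone gene passed, and 1 of 9 genes of the ATF4 and CHOP arm fell, and none of these 5 calls held without CDAA replicate 1 or without CSAA replicate 1. At an edgeR adjusted p under 0.05, 5 of the 34 members were called (14.7%), where 14.8% of all 12845 tested genes were, so the members together were called about as often as genes in general. Of the 34, 4 were higher (background 4.25%) and 1 was lower (background 10.5%). By class, 4 of 7 ERAD genes were higher and 0 lower, 0 of 14 chaperones were called, 0 of 4 sensors and factors were called, and 0 of 9 ATF4 arm genes were higher with 1 lower. The median log2 fold change, CDAA over CSAA, was 0.49 for ERAD genes, 0.28 for chaperones, 0.09 for sensors and factors and -0.14 for the ATF4 arm, beside 0.00022 for all tested genes. On TMM-scaled CPM, the 2 groups did not overlap for 5 ERAD genes and 5 chaperones, all higher in CDAA (background 15.6%). Nor did they for 1 ATF4 arm gene, lower in CDAA (background 20.4%). In FPKM, scaled by library total without TMM factors, only Derl2 and Atf3 among these genes kept the groups apart. Herpud1, for example, had 204.3 FPKM in CDAA replicate 2 and 211.9 FPKM in CSAA replicate 2. The share over all genes was not computed on that scale.

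**Figure D2:**
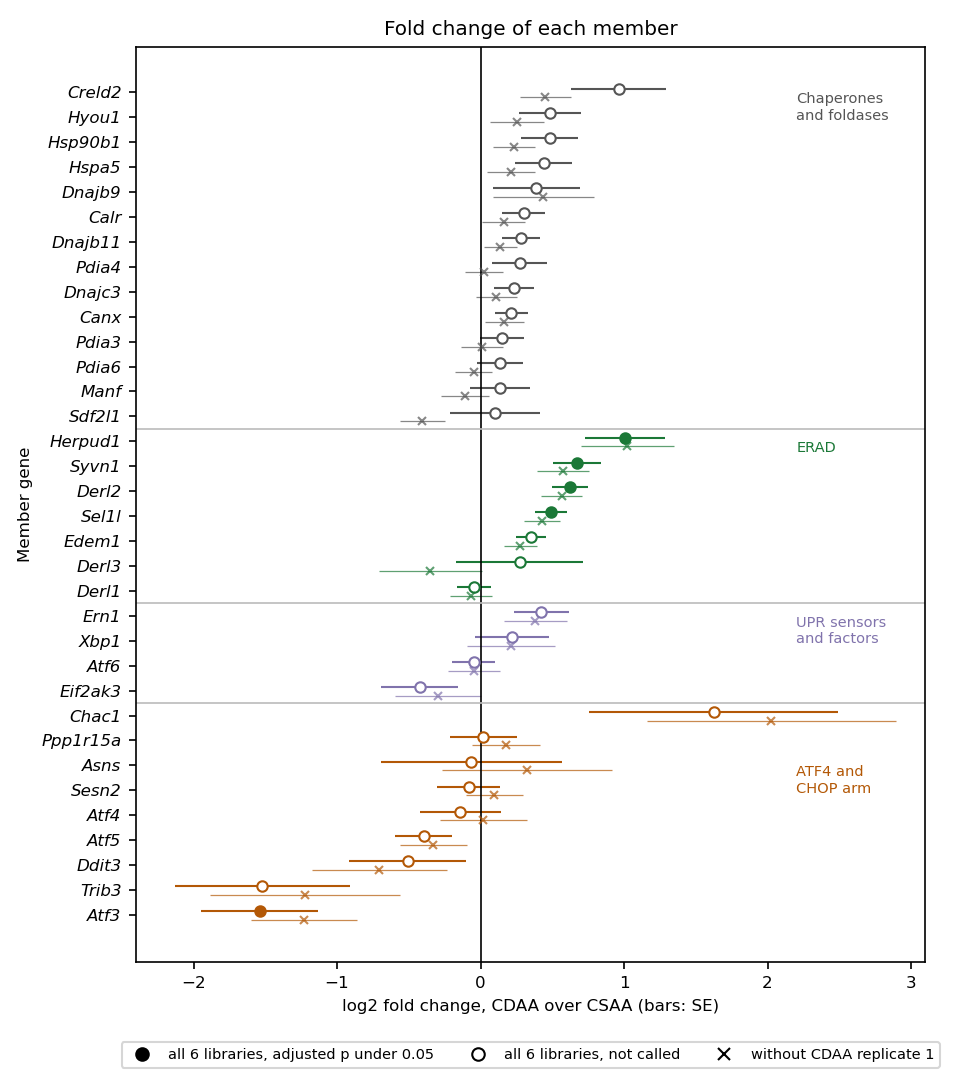
Log2 fold change (CDAA over CSAA, bars are SE) of each member by class, filled where the adjusted p was under 0.05 and open where it was not, with crosses for the fit without CDAA replicate 1. The 4 filled ERAD points lie between 0.49 and 1.01 and their crosses between 0.43 and 1.02, while the crosses of most chaperones lie nearer to 0 than their circles.

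Herpud1 encodes HERP, an ER membrane protein that organises the HRD1 ubiquitin ligase complex. It had 600.0, 539.5 and 695.2 CPM in CDAA replicates 1 to 3, against 264.7, 450.0 and 198.3 CPM in CSAA replicates 1 to 3. On this TMM-scaled measure every CDAA library was above every CSAA library, and CSAA replicate 2 was the one that came nearest. The means were 611.5 ± 78.5 CPM in CDAA and 304.3 ± 130.4 CPM in CSAA (SD, n = 3 each), a 2.01-fold difference (log2 1.01 ± 0.28 SE, edgeR adjusted p = 0.0485). Herpud1 (ENSMUSG00000031770) lies on chromosome 8 from 95113066 to 95122005 in the files, whose headers name no build. Its promoter holds both the amino acid response element core (first capitals, on the opposite strand) and the second ER stress response element (last capitals) within 163 bases, chr8:94386266-94386428, plus strand, ending at the base before the start:
Herpud1: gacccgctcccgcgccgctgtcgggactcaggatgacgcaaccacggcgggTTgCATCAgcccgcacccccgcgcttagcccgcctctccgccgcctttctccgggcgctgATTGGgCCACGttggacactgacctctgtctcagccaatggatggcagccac

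Syvn1 encodes HRD1, the ubiquitin ligase of that complex. It had 162.9, 108.4 and 160.6 CPM in CDAA replicates 1 to 3, against 95.3, 95.03 and 80.9 CPM in CSAA replicates 1 to 3. The groups did not overlap, but CDAA replicate 2 was close to the CSAA libraries. The log2 fold change was 0.67 ± 0.17 SE (1.59-fold, edgeR adjusted p = 0.0343). Syvn1 (ENSMUSG00000024807, chromosome 19, bases 6096606 to 6103742 in the files) shares 91 bases with Mrpl49 on the other strand. Its ER stress response element stands close to the start, in the 94 bases chr19:6046482-6046575 of GRCm38.p6, plus strand:
Syvn1: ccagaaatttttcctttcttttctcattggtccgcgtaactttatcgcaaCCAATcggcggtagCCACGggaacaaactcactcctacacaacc

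Derl2, a derlin that passes misfolded proteins out through the ER membrane, had 164.3, 151.1 and 139.1 CPM in CDAA replicates 1 to 3, against 86.9, 113.4 and 94.4 CPM in CSAA replicates 1 to 3. Its groups were well apart (log2 0.62 ± 0.13 SE, edgeR adjusted p = 0.0171). Sel1l, the adaptor that brings substrates to HRD1, had 337.7, 284.8 and 305.0 CPM in CDAA replicates 1 to 3, against 221.4, 231.7 and 205.8 CPM in CSAA replicates 1 to 3. It was also higher in every CDAA library, by a smaller ratio (log2 0.49 ± 0.11 SE, edgeR adjusted p = 0.0249). Derl2 (ENSMUSG00000018442, chromosome 11 from 70897990 to 70910667) shares 231 bases with Mis12 on the other strand, and the strand setting of the counting is not given in the sources used here. Sel1l (ENSMUSG00000020964) lies on chromosome 12 from 91772817 to 91815931.

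The other 3 ERAD members did not pass. Edem1, a lectin that draws mannose-trimmed proteins to degradation, had no overlap between groups (257.6 ± 24.4 CPM in CDAA and 201.9 ± 4.99 CPM in CSAA, SD, n = 3 each, log2 0.35 ± 0.11 SE, edgeR adjusted p = 0.0646). Derl1 was level with a log2 fold change of -0.05 ± 0.12 SE. Derl3, the derlin typical of secretory cells, was at 10.04 CPM in CDAA replicate 1 and at 4.07 and 3.55 CPM in CDAA replicates 2 and 3, against 3.095, 6.56 and 4.97 CPM in CSAA replicates 1 to 3. Its highest value thus fell in the library with acinar transcripts, and its log2 fold change of 0.27 became -0.35 without that library.

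The sizes of the ERAD differences held without CDAA replicate 1, but the calls did not. Without it the 4 log2 fold changes ranged from 0.43 to 1.02 and their edgeR adjusted p from 0.0538 to 0.0965, and 0 of the 34 members were higher (background 1.71%) or lower (background 7.27%). Without CSAA replicate 1, 0 members passed either. Among the 6 fits that each leave out 1 library, Herpud1 passed only without CSAA replicate 2 and Syvn1 only without CDAA replicate 2. Sel1l passed without CDAA replicate 2 or 3, and Derl2 without CDAA replicate 3 or CSAA replicate 2 or 3. Edem1, not called by edgeR with all libraries, passed without CDAA replicate 3 (edgeR adjusted p = 0.0426). With all libraries it passed in DESeq2 (DESeq2 adjusted p = 0.00961). On library size alone, 0 ERAD genes passed, where the median of all tested genes moved to -0.28. The 18 hepatocyte markers in the files had a median log2 fold change of 0.47, all positive, with 3 called higher, and summed to between 124440 and 136294 CPM in CDAA and between 84137 and 108326 CPM in CSAA. The ERAD median was close to that value. The hepatocyte range ran from 0.12 to 0.94, and Syvn1, Derl2 and Sel1l lay within it. Herpud1, at 1.01 ± 0.28 SE, was above the end of that range by less than its SE. In whole liver, fewer cells of a type and less RNA per cell cannot be told apart, and the part of cell composition in these differences was not tested.

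**Figure D3:**
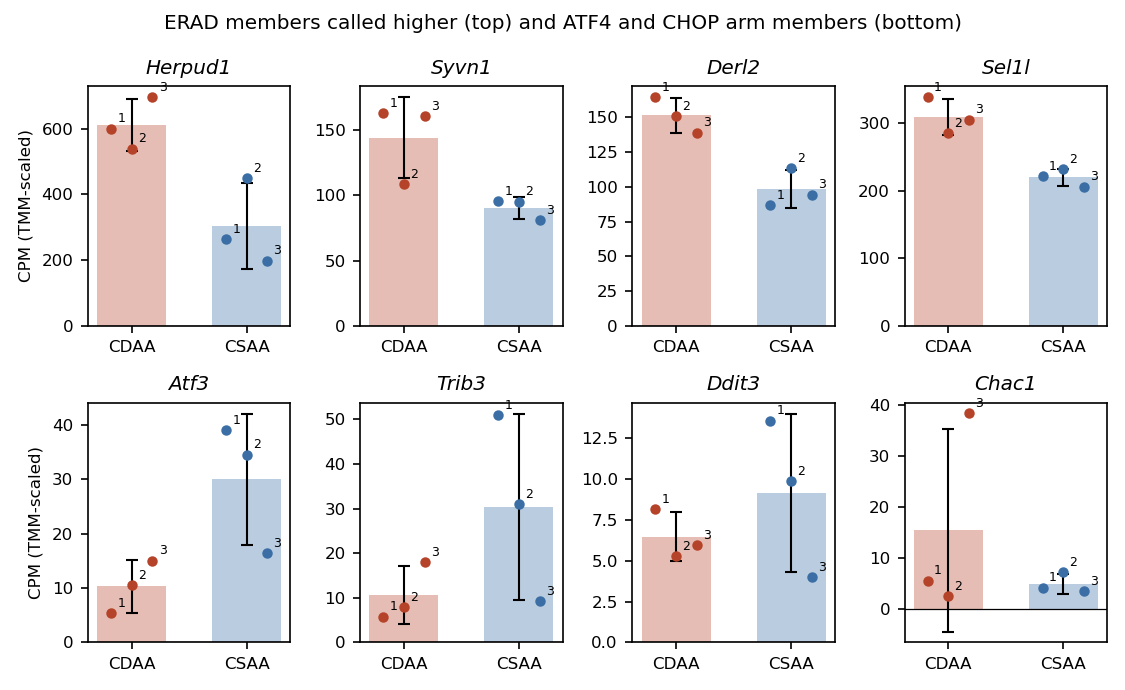
CPM on TMM-scaled totals of the 4 ERAD members called higher (top) and of 4 ATF4 and CHOP arm members (bottom), with bars for means, error bars for SD (n = 3) and points numbered by replicate. Herpud1, Syvn1, Derl2 and Sel1l do not overlap between CDAA and CSAA, Atf3 is lower in CDAA, and 1 CDAA library sets the Chac1 mean.

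All 14 chaperones and foldases had positive log2 fold changes, from 0.10 to 0.96, on TMM scaling, 8 of them were negative on library size alone, and 0 passed (lowest edgeR adjusted p = 0.0891, for Creld2). At an unadjusted p under 0.05, 2 did, Creld2 and Hsp90b1. Hspa5 had 1574, 995.7 and 1073 CPM in CDAA replicates 1 to 3, against 934.3, 982.7 and 769.0 CPM in CSAA replicates 1 to 3. CDAA replicate 1 was well above the other 5 libraries, and CDAA replicate 2 was level with CSAA replicate 2 (log2 0.44 ± 0.20 SE, edgeR adjusted p = 0.183). Without CDAA replicate 1 the Hspa5 log2 fold change was 0.21 ± 0.17 SE (edgeR adjusted p = 0.470). Creld2, a disulfide-handling ER protein secreted under stress, had 109.2, 39.5 and 55.8 CPM in CDAA replicates 1 to 3, against 34.1, 39.7 and 31.0 CPM in CSAA replicates 1 to 3. Its log2 fold change of 0.96 ± 0.33 SE became 0.45 without CDAA replicate 1. It passed in 1 fit that leaves out a library, without CDAA replicate 2 (edgeR adjusted p = 0.0392). Hsp90b1 had 917.8, 599.3 and 570.7 CPM in CDAA replicates 1 to 3, against 497.8, 542.7 and 455.3 CPM in CSAA replicates 1 to 3, without overlap (log2 0.48 ± 0.20 SE, edgeR adjusted p = 0.140), and its log2 fold change was 0.23 without CDAA replicate 1.

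CDAA replicate 1 was the highest CDAA library for 13 of the 14 chaperones, where it was the highest for 30.8% of all tested genes. The exception was Dnajb9, a BiP co-chaperone whose transcript is a known target of spliced Xbp1, with 106.2, 92.5 and 142.4 CPM in CDAA replicates 1 to 3, against 79.5, 128.4 and 52.6 CPM in CSAA replicates 1 to 3. The ratio of CDAA replicate 1 to the mean of the other CDAA libraries had a median of 1.47 over chaperones and reached 2.28 for Sdf2l1, a partner of ER J-proteins, and 2.29 for Creld2. Among ERAD genes it was 2.63 for Derl3 and 0.972 for Herpud1. Without CDAA replicate 1 the chaperone median fell to 0.15, 3 of 14 log2 fold changes were negative (Sdf2l1, Manf and Pdia6), and 0 passed. The part of the acinar transcripts in the chaperone values was not tested.

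The promoters of the chaperones with the lowest adjusted p show the element in different places and on different strands. In Creld2 it runs on the opposite strand in the 119 bases chr15:88819470-88819588 (plus strand), and in Hsp90b1 the pair stands in both orientations within the 212 bases chr10:86705483-86705694 (minus strand), both in GRCm38.p6, with the fixed letters in capitals:
Creld2: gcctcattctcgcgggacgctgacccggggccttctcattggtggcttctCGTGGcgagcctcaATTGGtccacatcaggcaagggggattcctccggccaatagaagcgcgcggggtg
Hsp90b1: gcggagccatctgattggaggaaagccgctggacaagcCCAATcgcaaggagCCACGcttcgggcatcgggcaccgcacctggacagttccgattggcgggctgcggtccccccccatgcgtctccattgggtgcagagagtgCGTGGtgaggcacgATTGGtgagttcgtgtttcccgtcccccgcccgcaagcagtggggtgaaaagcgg

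The chaperones listed next had log2 fold changes from 0.14 to 0.49, the largest that of Hyou1. The co-chaperones Dnajc3 and Dnajb11 had log2 fold changes of 0.23 ± 0.14 and 0.28 ± 0.13 (SE). The lectin chaperones Calr and Canx had 0.30 ± 0.15 and 0.22 ± 0.12, both without overlap between groups. The disulfide isomerases Pdia3, Pdia4 and Pdia6 had 0.15 ± 0.15, 0.27 ± 0.19 and 0.14 ± 0.16. Hyou1, which exchanges nucleotide on BiP, had 0.49 ± 0.22, and Manf, an ER protein that is secreted under stress, 0.14 ± 0.21. Without CDAA replicate 1 these log2 fold changes were 0.11 for Dnajc3, 0.14 for Dnajb11, 0.16 for Calr, 0.17 for Canx, 0.0083 for Pdia3, 0.024 for Pdia4, -0.047 for Pdia6, 0.25 for Hyou1 and -0.11 for Manf. With or without that library, 0 of these genes passed.

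None of the 4 sensors and their factors passed. Ern1 had 210.5, 147.4 and 237.2 CPM in CDAA replicates 1 to 3, against 134.9, 134.8 and 173.8 CPM in CSAA replicates 1 to 3 (log2 0.42 ± 0.19 SE, edgeR adjusted p = 0.173). Its groups overlapped through CDAA replicate 2 and CSAA replicate 3. Xbp1 had 285.4, 207.8 and 347.5 CPM in CDAA replicates 1 to 3, against 205.8, 184.1 and 331.6 CPM in CSAA replicates 1 to 3 (log2 0.22 ± 0.26 SE, edgeR adjusted p = 0.609). The spread within each group was wider than the difference between them. Atf6 had 131.4, 121.3 and 141.2 CPM in CDAA replicates 1 to 3, against 144.9, 155.0 and 107.1 CPM in CSAA replicates 1 to 3, and was level (log2 -0.05 ± 0.15 SE). Eif2ak3 had 21.4, 21.2 and 35.9 CPM in CDAA replicates 1 to 3, against 39.5, 42.1 and 23.7 CPM in CSAA replicates 1 to 3 (log2 -0.43 ± 0.27 SE, edgeR adjusted p = 0.331), so replicate 3 of each group crossed into the range of the other. CDAA replicate 3 was the highest CDAA library for all 4 genes.

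In the ATF4 and CHOP arm, Atf3, a stress-induced transcription factor, was the gene that fell. It had 5.40, 10.51 and 15.1 CPM in CDAA replicates 1 to 3, against 39.1, 34.5 and 16.4 CPM in CSAA replicates 1 to 3. The groups did not overlap, but CDAA replicate 3 and CSAA replicate 3 were close to each other (log2 -1.54 ± 0.41 SE, edgeR adjusted p = 0.0422). Atf3 passed in 2 of the 6 fits that leave out a library, those without CDAA replicate 3 or CSAA replicate 3, and the highest edgeR adjusted p among the 6 was 0.150. Its log2 fold change was -1.23 without CDAA replicate 1 (edgeR adjusted p = 0.0869). Macrophages also express Atf3. In the same libraries the 18 monocyte and macrophage markers, none of them at 0 in any library, summed to between 452.2 and 572.9 CPM in CDAA and between 1070 and 1766 CPM in CSAA, with 14 of 18 called lower, and the part of these cells in the Atf3 difference was not tested. The files place Atf3 (ENSMUSG00000026628) on chromosome 1, bases 190902493 to 190950236. Its promoter, 109 bases at chr1:191183386-191183494 of GRCm38.p6 (minus strand), holds the amino acid response element core on the opposite strand, as does Trib3 in the 30 bases chr2:152344028-152344057 (minus strand) just after its start:
Atf3: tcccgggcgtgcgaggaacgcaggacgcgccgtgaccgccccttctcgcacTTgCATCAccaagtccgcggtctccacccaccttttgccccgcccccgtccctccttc
Trib3: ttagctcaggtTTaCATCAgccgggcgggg

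Trib3, a pseudokinase that restrains insulin signalling, had a log2 fold change as large as that of Atf3 but did not pass (-1.52 ± 0.61 SE, edgeR adjusted p = 0.136). It had 5.78, 7.99 and 17.97 CPM in CDAA replicates 1 to 3, against 50.9, 31.0 and 9.19 CPM in CSAA replicates 1 to 3. CSAA replicate 3 lay within the CDAA range, and without it Trib3 passed (log2 -1.93, edgeR adjusted p = 0.0466). Ddit3 had 8.14, 5.26 and 5.97 CPM in CDAA replicates 1 to 3, against 13.6, 9.86 and 3.97 CPM in CSAA replicates 1 to 3 (log2 -0.51 ± 0.41 SE, edgeR adjusted p = 0.447). It too was lowest in CSAA replicate 3. Atf4 had 88.6, 81.0 and 174.2 CPM in CDAA replicates 1 to 3, against 127.2, 146.0 and 105.6 CPM in CSAA replicates 1 to 3 (log2 -0.14 ± 0.28 SE, edgeR adjusted p = 0.780). Its highest value was in CDAA replicate 3, and without that library it passed as lower (log2 -0.57, edgeR adjusted p = 0.0413).

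Chac1, which degrades glutathione, had the highest log2 fold change of the members and the widest error (1.63 ± 0.87 SE, edgeR adjusted p = 0.250). It had 5.63, 2.52 and 38.3 CPM in CDAA replicates 1 to 3, against 4.23, 7.195 and 3.60 CPM in CSAA replicates 1 to 3. A single library, CDAA replicate 3, set that mean, and without it the log2 fold change was -0.30. Asns, asparagine synthetase, had 5.93, 18.2 and 22.4 CPM in CDAA replicates 1 to 3, against 29.2, 14.5 and 4.84 CPM in CSAA replicates 1 to 3, a spread that covered the same range in both groups (log2 -0.06 ± 0.63 SE). Atf5, a transcription factor related to ATF4, had a log2 fold change of -0.39 ± 0.20 SE. Sesn2, a stress-induced restraint on growth signalling, and Ppp1r15a, which encodes the phosphatase subunit GADD34 that ends the response, had -0.08 ± 0.22 and 0.02 ± 0.23 SE. None of these 5 genes passed.

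Most of the 9 genes of this arm were high and low in the same libraries within a diet. Of the 9, 6 had CDAA replicate 3 highest, CSAA replicate 1 highest and CSAA replicate 3 lowest in their groups, as did 928 of 12845 tested genes. That order was not planned and was read from these same values, so the counts of it describe these genes and test nothing. CSAA replicate 3 was the lowest CSAA library for 9 of 9, and over all tested genes it was the lowest for 4284 of 12845. CSAA replicate 1 was the highest CSAA library for 7 of 9 (33.0% of all tested genes). Among CDAA libraries, replicate 3 was the highest for 8 of 9 (38.9% of all tested genes), the exception being Ddit3. The chaperones followed another order, with CSAA replicate 2 the highest CSAA library for 14 of 14 (33.8% of all tested genes). Expressed as the mean log2(CPM + 0.5) relative to the CSAA mean, the ATF4 and CHOP arm was at -0.77, -0.56 and 0.32 in CDAA replicates 1 to 3, against 0.45, 0.22 and -0.66 in CSAA replicates 1 to 3. The libraries of each diet lay on both sides of 0, and the diets overlapped. Mitochondrial genes took 6.24%, 6.31% and 5.49% of reads in CDAA replicates 1 to 3, against 4.12%, 4.66% and 5.25% in CSAA replicates 1 to 3, and their part in the order of libraries was not tested.

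**Figure D4:**
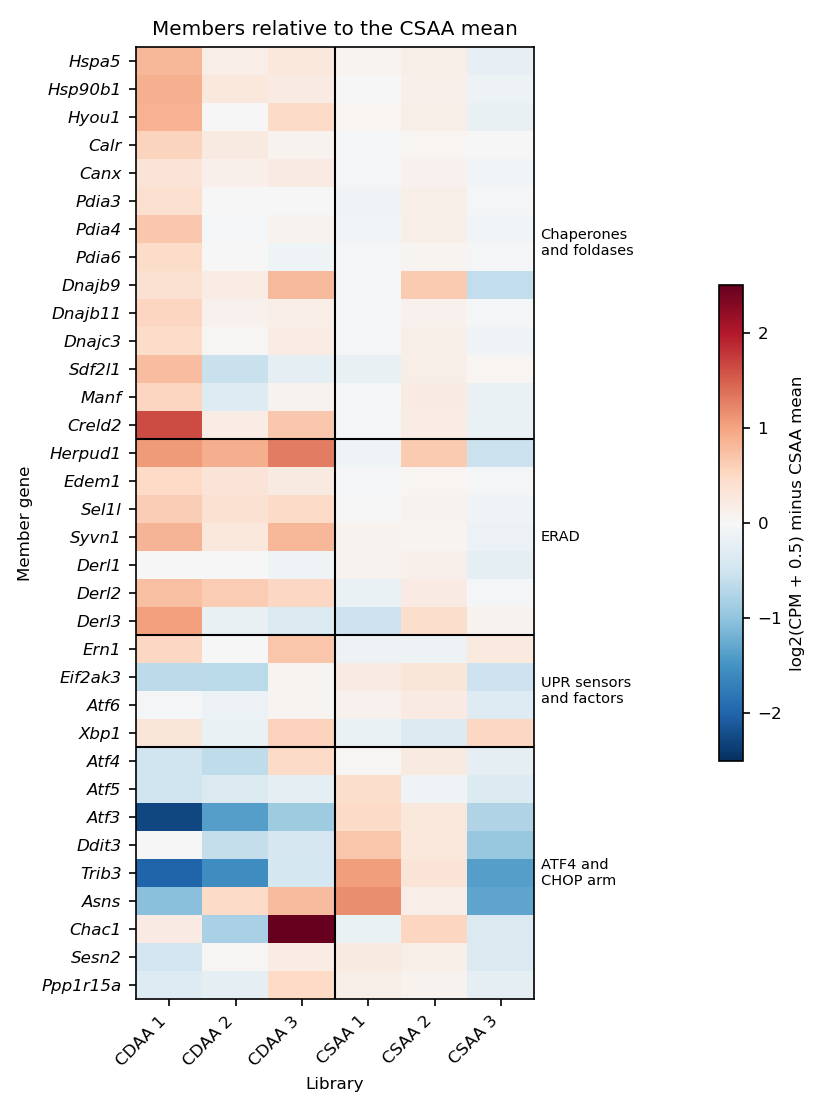
Log2(CPM + 0.5) of each member minus its CSAA mean (colour), libraries in columns and members in rows by class. CDAA replicate 1 is the reddest CDAA column for 13 of 14 chaperones, all but Dnajb9, while ATF4 and CHOP arm genes are mostly blue in CDAA replicates 1 and 2 and CSAA replicate 3.

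Set side by side, the chaperone and ERAD members and the ATF4 and CHOP arm had opposite medians (0.30 over 21 genes and -0.14 over 9 genes). By library, the mean of the chaperone and ERAD members minus that of the ATF4 and CHOP arm, on the same log2 scale, was 1.44, 0.69 and -0.05 in CDAA replicates 1 to 3, against -0.50, -0.02 and 0.53 in CSAA replicates 1 to 3. The groups overlapped, since CDAA replicate 3 was below CSAA replicates 2 and 3. The largest value was again that of CDAA replicate 1. Without that library the medians were 0.17 and 0.02. These are descriptions of chosen lists, and no test was made of the difference between them.

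**Figure D5:**
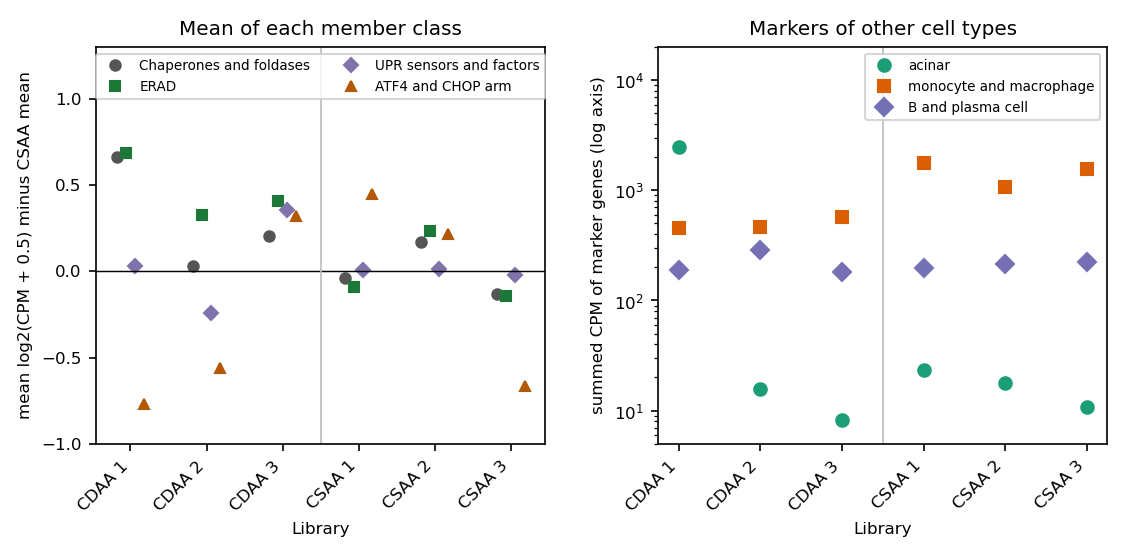
Left, the mean log2(CPM + 0.5) of each class minus its CSAA mean in each library, and right, the summed CPM (log axis) of acinar, monocyte and macrophage, and B and plasma cell markers. CDAA replicate 1 has the highest chaperone and ERAD means and the acinar sum of 2472 CPM, and the ATF4 and CHOP arm is high in CDAA replicate 3 and CSAA replicates 1 and 2.

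Among other genes of the pathway, few passed in either direction. Of 40 tested ER folding enzymes beyond the members, 2 were higher and 1 lower (median log2 0.13). The higher ones were Creld1 (log2 0.68 ± 0.14 SE, edgeR adjusted p = 0.0197), a relative of Creld2, and Tmx4, a membrane thioredoxin (log2 0.75 ± 0.19 SE, edgeR adjusted p = 0.0393). The lower one was Dnajc10, an ER disulfide reductase, with 41.9, 38.0 and 39.8 CPM in CDAA replicates 1 to 3, against 54.6, 57.4 and 55.1 CPM in CSAA replicates 1 to 3 (log2 -0.48 ± 0.09 SE, edgeR adjusted p = 0.0127). Of 31 other ERAD genes, 1 was higher and 1 lower (median 0.06). Svip, an inhibitor of ERAD that binds the VCP ATPase, rose (log2 0.73 ± 0.15 SE, edgeR adjusted p = 0.0197), and Edem2, the mannosidase that acts before Edem1 on glycans, fell (log2 -0.49 ± 0.11 SE, edgeR adjusted p = 0.0240). Without CDAA replicate 1, Creld1 (log2 0.74) and Dnajc10 (log2 -0.52) passed, while Tmx4 (log2 0.62, edgeR adjusted p = 0.107), Svip (log2 0.66, edgeR adjusted p = 0.0588) and Edem2 (log2 -0.52, edgeR adjusted p = 0.0501) did not. In that fit 1 folding enzyme was higher and 3 lower, and 0 of the 31 ERAD genes were called. The 4 ERAD members called higher stood beside a wider ERAD list with a median near 0, and the lists were not tested against each other.

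Of 32 other UPR regulators, 1 was higher and 3 lower (median -0.00064). Creb3l3, a hepatocyte relative of ATF6, had 406.8, 441.1 and 447.2 CPM in CDAA replicates 1 to 3, against 278.3, 280.5 and 331.8 CPM in CSAA replicates 1 to 3 (log2 0.54 ± 0.12 SE, edgeR adjusted p = 0.0218). Bcl2l11, the death-promoting BIM (log2 -1.16 ± 0.20 SE, edgeR adjusted p = 0.00913), Creb3l1, a factor of collagen-secreting cells (log2 -2.01 ± 0.40 SE, edgeR adjusted p = 0.0155), and the retrieval receptor Kdelr3 (log2 -1.65 ± 0.39 SE, edgeR adjusted p = 0.0298) fell. Creb3l1 and Kdelr3 were low, at no more than 7.47 CPM in any library. Beside Creb3l1, the stellate cell and fibroblast markers summed to between 311.7 and 594.3 CPM in CDAA and between 904.8 and 1293 CPM in CSAA, with 8 of 10 tested called lower and 1 of 11 (Tagln) at 0 in 2 libraries, and their part in it was not tested. Kdelr3 did not pass without CDAA replicate 1 (log2 -1.42, edgeR adjusted p = 0.0837), and the other 3 did. Of 23 translocon and signal peptidase genes 0 were called, and their log2 fold changes ran from -0.18 to 0.38.

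Of 29 other ATF4 targets, 0 were higher and 2 lower (median -0.21). Slc7a11, the cystine transporter, had 0.152, 0 and 0.142 CPM in CDAA replicates 1 to 3, against 12.8, 2.88 and 5.09 CPM in CSAA replicates 1 to 3 (edgeR adjusted p = 0.00468), so it was nearly absent from the CDAA libraries. Aldh18a1, which makes proline precursors, had 7.37, 7.55 and 7.67 CPM in CDAA replicates 1 to 3, against 21.5, 12.3 and 11.98 CPM in CSAA replicates 1 to 3 (log2 -1.02 ± 0.25 SE, edgeR adjusted p = 0.0305). Of 20 cytosolic aminoacyl-tRNA synthetases, many of them ATF4 targets, 1 was higher, Tars1 for threonine (log2 0.65 ± 0.11 SE, edgeR adjusted p = 0.00919), and 0 were lower (median 0.04). Without CDAA replicate 1, Slc7a11 and Tars1 passed and Aldh18a1 did not (edgeR adjusted p = 0.0799).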

How the data were processed

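Each deposited file holds 1 liver library with whole-number read counts per gene, not normalised by the authors, and FPKM, both per the file headers. For every gene with reads the deposited FPKM equalled the count scaled by listed length and library total (relative tolerance 0.001). It carries no TMM factors. It was used to compare levels between genes, with the level in each diet shown, and to give overlap without TMM factors. No fold change or test rests on it. The submitters' processing notes list HISAT2 2.0.5, cutadapt 1.15, DESeq 1.30.0 and HTSeq 0.9.1, and 2 builds, mm10 and mm9, with no role for either. The sources used here give no strand setting and no treatment of multi-mapping or overlapping reads.

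CDAA was compared with CSAA, 3 libraries each, by the quasi-likelihood test of edgeR 4.0.16 (R 4.3.3) on the deposited counts, after filterByExpr and TMM scaling, with Benjamini-Hochberg adjustment over all 12845 genes kept and a threshold of 0.05. The test was checked on simulated data. CPM are on TMM-scaled totals. The SE is the log2 fold change over the square root of F. A count of 3 corresponds to between 0.147 and 0.228 CPM, for counting error only.

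The members were listed by name with no threshold on values, but they and the other lists were chosen with earlier results of these data known. The 338 list entries left 4 without a match, and 17 matched through an older symbol. Values in every library were given for called members and for Hspa5, Xbp1, Atf4, Ddit3, Atf6, Ern1 and Eif2ak3; the other genes with such values (Creld2, Hsp90b1, Dnajb9, Derl3, Trib3, Chac1, Asns, Dnajc10, Creb3l3, Slc7a11, Aldh18a1, Fgf21, Psat1) were chosen to be shown this way after theirs were seen. Of each pathway list up to 3 called genes per direction were named. Promoters were printed for up to 6 members with a motif match, by smallest adjusted p. Alternatives were RLE, upper-quartile and no scaling factors, no filter, a mean of at least 1 CPM, DESeq2 1.42.0, a replicate block and leaving out each library.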

Additional observations from a re-analysis of the deposited data

How the results depend on the processing

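There were 3 mice per diet, and a member had as few as 34 reads in a library, so depth limits the low members (Ddit3, Derl3, Chac1). Over the alternatives, 373 values of single members kept both direction and side of the threshold, 30 lost a call, 6 gained one and 33 turned direction. On library size alone the median over all genes (log2 fold change) was -0.28, that of chaperones -0.0077 and that of ERAD genes 0.21. There 137 genes were higher and 2756 lower, 0 members and 0 ERAD genes were higher, and 0 other pathway genes were higher and 28 lower. DESeq2 called 1117 genes higher, among them 6 members, of which 5 were ERAD genes and 1 a chaperone (Creld2). It also called 15 other pathway genes higher and 11 lower. With the filter at a mean of at least 1 CPM, 3 ERAD genes were higher and Herpud1 was not called (edgeR adjusted p = 0.0555). RLE factors gave 8 other pathway genes higher.

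Same-numbered libraries deviated together with r = 0.0493, 0.137 and -0.0897 over genes for replicates 1, 2 and 3, so the numbers were not taken as pairs. With a replicate block, 293 genes were higher, 1 member was higher (Derl2, the 1 ERAD gene), and 0 members, and so 0 of the ATF4 and CHOP arm, were lower.

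Leaving out 1 library gave 76 to 688 genes higher and 568 to 1456 lower, 0 to 3 members higher and 0 to 2 lower, 0 to 1 chaperones higher, 0 to 3 ERAD genes higher, 0 to 2 ATF4 and CHOP arm genes lower, and 1 to 6 other pathway genes higher and 2 to 9 lower. An arm then left with 2 libraries shares the spread estimate of the other.

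Directions that turned were all of members not called with all libraries under TMM. On library size alone these were Canx (-0.068), Pdia3 (-0.13), Pdia4 (-0.011), Pdia6 (-0.15), Dnajb11 (-0.0041), Dnajc3 (-0.050), Sdf2l1 (-0.18), Manf (-0.15), Derl3 (-0.0049), Xbp1 (-0.042) and Ppp1r15a (-0.26). With upper-quartile factors Ppp1r15a was at -0.024. With the replicate block Sdf2l1 was at -0.010, Asns at 0.11 and Ppp1r15a at -0.023. Leaving out 1 library gave Pdia6 -0.047 to 0.25, Sdf2l1 -0.41 to 0.35, Manf -0.11 to 0.32, Derl1 -0.13 to 0.033, Derl3 -0.35 to 0.56, Atf6 -0.17 to 0.068, Atf4 -0.57 to 0.061, Asns -0.48 to 0.70, Chac1 -0.30 to 2.13, Sesn2 -0.23 to 0.096 and Ppp1r15a -0.30 to 0.18. The causes were not tested.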

Other observations

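Of 29 other ATF4 targets, 9 had CDAA replicate 3 highest, CSAA replicate 1 highest and CSAA replicate 3 lowest in their groups, and the other 20 did not. Over all tested genes 928 of 12845 had this order, which was picked after the member values were seen. Fgf21 and Psat1, 2 of those 9, were chosen after their values were seen. Fgf21, a hormone secreted by liver under nutrient stress, had 19.8, 11.2 and 172.2 CPM in CDAA replicates 1 to 3, against 170.1, 143.7 and 27.6 CPM in CSAA replicates 1 to 3. Psat1, a serine synthesis enzyme, had 6.31, 16.1 and 26.6 CPM in CDAA replicates 1 to 3, against 21.8, 16.5 and 7.39 CPM in CSAA replicates 1 to 3. The B and plasma cell markers, cells that also carry high ER chaperone levels, summed to between 180.4 and 286.5 CPM in CDAA and between 195.5 and 223.9 CPM in CSAA, with Sdc1 as the main part of the sum in each library. Sdc1 had a log2 fold change of 0.14, while the other 8 tested genes of that list were negative and the list's median was -0.92. Among the other marker lists, 2 of 2 tested neutrophil genes, 5 of 7 T and NK cell genes, 2 of 9 endothelial genes, 1 of 6 cholangiocyte genes and 2 of 9 B and plasma cell genes were called lower in CDAA, and 0 higher.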
